A study of Mus musculus with 191 samples.

Results

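The 5 genes described here are Mpo, Elane, Prtn3, Ctsg and Ms4a3. They were taken by name from 5 tables of normalized RNA sequencing values, which together held 21204 genes from 191 mouse libraries. All 5 had a row in the bone marrow table. The skin table held rows for Mpo, Ctsg and Prtn3, the liver and lung tables for Prtn3, and the gut table for none of the 5.

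Bone marrow, gut, liver and lung came from wild-type C57BL/6 mice given either an antibody to Ly6G (clone 1A8, called anti-Ly6G below), a neutrophil surface protein through which these cells are depleted in mice, or control IgG. Both antibodies were given at 3 µg per g of body weight on 2 consecutive days, and tissues were taken a day later. Per tissue there were 18 anti-Ly6G and 18 IgG libraries, 3 at each of Zeitgeber time (ZT, hours after lights on) 1, 5, 9, 13, 17 and 21. Ear skin came from 16 Mrp8CRE; iDTR mice, 15 Mrp8CRE; Bmal1-flox mice and 16 controls, with 1 mouse per group at each of up to 16 times from ZT 1 to ZT 24.

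The iDTR mice carry a diphtheria toxin (DT) receptor that Mrp8CRE, a Cre driven by a promoter of MRP8 (S100a8) that is active in myeloid cells, should turn on in neutrophils, and were given DT at 10 µg per kg on 2 days. Controls were labelled wild type and also received DT. The Bmal1-flox mice, in which the same Cre removes the clock gene Arntl, received none per the labels, so they differ from the controls in both genotype and DT. The Gt(ROSA)26Sor transcript, from the locus in which iDTR alleles are made, had a median of 0.604 in iDTR skin, 26.3 in Bmal1-flox skin and 0.798 in control skin, which goes against a wild-type locus in the libraries labelled control. They are called control below as their labels have it.

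Neutrophils carry several kinds of granule, which form one after another while the cell matures in the bone marrow. The azurophil, or primary, granules form first, at the promyelocyte stage, and their genes are switched off before the cell is mature, so mature neutrophils hold the proteins but little of the RNA. Mpo encodes myeloperoxidase, the haem enzyme that makes hypochlorous acid. Elane, Prtn3 and Ctsg encode the serine proteases neutrophil elastase, proteinase 3 and cathepsin G. Ms4a3 encodes a 4-transmembrane protein that marks granulocyte-monocyte progenitors and is not a granule enzyme.

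In GRCm38 coordinates from GENCODE M21, Mpo lies on chromosome 11 at 87793581 to 87804413 (plus strand). Prtn3, at 79874476 to 79883174, and Elane, at 79886247 to 79888215, are next to each other on the plus strand of chromosome 10, with 3073 bases between them. Ctsg lies on the minus strand of chromosome 14 at 56099881 to 56102574, and Ms4a3 on the minus strand of chromosome 19 at 11629496 to 11640851. All 5 are protein coding.

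Bases before each gene's start in RefSeq (GRCm38.p6), which held an entry for all 5, are shown because the 5 genes moved together in bone marrow, so that their promoters can be set side by side. RefSeq and GENCODE M21, the source of the positions above, place some starts differently. The RefSeq start is the same base for Ctsg and Ms4a3, and lies downstream of the GENCODE one by 203 bases for Mpo, 65 for Elane and 5191 for Prtn3, where GENCODE counts from a transcript that begins further upstream. Motifs were searched in the 250 bases before the RefSeq start. Printed are those of them that precede the first GENCODE exon of the gene within the window, 47 for Mpo, 185 for Elane, 197 for Prtn3 and 250 for Ctsg and Ms4a3, written 5′ to 3′ on the gene's strand. Capitals mark GGAAGT, the core bound by PU.1 and other ETS factors. Mpo is at chr11:87793534-87793580 (plus strand), Elane at chr10:79886062-79886246 (plus strand), Prtn3 at chr10:79879417-79879613 (plus strand), Ctsg at chr14:56102575-56102824 (minus strand) and Ms4a3 at chr19:11640852-11641101 (minus strand).
Mpo: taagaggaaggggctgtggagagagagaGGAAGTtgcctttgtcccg
Elane: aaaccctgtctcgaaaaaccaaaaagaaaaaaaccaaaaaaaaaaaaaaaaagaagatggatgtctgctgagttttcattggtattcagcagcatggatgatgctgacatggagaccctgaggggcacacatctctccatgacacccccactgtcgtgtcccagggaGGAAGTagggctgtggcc
Prtn3: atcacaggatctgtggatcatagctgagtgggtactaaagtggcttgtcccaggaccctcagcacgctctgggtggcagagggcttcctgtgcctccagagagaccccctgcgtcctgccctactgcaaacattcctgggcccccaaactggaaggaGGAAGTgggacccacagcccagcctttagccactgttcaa
Ctsg: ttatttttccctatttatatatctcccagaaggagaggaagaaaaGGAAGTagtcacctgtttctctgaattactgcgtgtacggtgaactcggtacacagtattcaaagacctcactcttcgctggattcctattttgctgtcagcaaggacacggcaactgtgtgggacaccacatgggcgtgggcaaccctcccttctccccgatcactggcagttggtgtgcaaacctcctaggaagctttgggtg
Ms4a3: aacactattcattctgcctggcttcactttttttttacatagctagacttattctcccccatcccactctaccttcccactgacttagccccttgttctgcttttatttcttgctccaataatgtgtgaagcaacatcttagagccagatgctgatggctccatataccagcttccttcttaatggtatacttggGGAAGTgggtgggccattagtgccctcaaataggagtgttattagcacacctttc

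GGAAGT was found in 5 of the 5 windows of 250 bases, against 19.7% of all 32851 RefSeq windows of this length when both strands are searched. It lay on the gene's own strand in each case, at 222 to 217 bases before the RefSeq start in Mpo, 83 to 78 in Elane, 93 to 88 in Prtn3, 205 to 200 in Ctsg and 55 to 50 in Ms4a3. The longer form GAGGAAGT, which contains it, was in 3 of 5 (Mpo, Elane and Prtn3) and in 2.44% of all windows. The neighbours Elane and Prtn3 hold it at nearly the same distance from their RefSeq starts. The RUNX motif TGTGGT was in 1 of 5 (Ctsg, on the other strand), against 14% of all, the C/EBP motif TTGCNNAA in 0 of 5, against 9.56%, and the short MYB motif AACNG in 4 of 5, against 74.2%. The motifs were chosen after the windows had been read, and a match describes the letters and not binding.

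Recovered library totals, in units of 1000000 counts, ran from 12 to 23.4 in bone marrow, 10.3 to 23.2 in liver, 11.5 to 21.2 in lung and 7.68 to 25.4 in skin. Defining transcripts stood high in their labelled tissue, among them S100a9 in bone marrow (at least 6227), Alb in liver, Sftpc in lung and Krt5 in skin (at least 4645).

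In bone marrow, all 5 transcripts were more abundant after anti-Ly6G than after IgG, by 1.39-fold to 1.59-fold, and each was higher at 6 of 6 times. Values are the deposited normalized values, which are on a scale of about 1000000 counts per library. Differences are on the log2(value + 1) scale, from a limma model over all 14289 genes tested with ZT as a factor, with Benjamini-Hochberg adjustment and a threshold of 0.05. Of all genes tested, 9.95% were called higher and 7.16% lower with anti-Ly6G, and 5 of 5 members were called higher. The members and the gene lists below were chosen with earlier results of these data known, so counts and ranks of them are descriptions only. P-values measure the spread between these libraries, which the labels give as 1 mouse each. In whole tissue, more cells of a type and more RNA per cell cannot be told apart.

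Mpo, the most abundant of the 5 before allowing for length, had a lowest value of 1718, a median of 2091 and a highest of 2714 in anti-Ly6G libraries, against 1311, 1477 and 1839 in IgG libraries. It averaged 2128 ± 236.5 with anti-Ly6G and 1492 ± 141.3 with IgG (SD, n = 18 each). Of the 18 anti-Ly6G libraries, 17 lay above the highest IgG library. The difference was log2 0.51 (SE 0.0489), or 1.42-fold with a 95% confidence interval of 1.33 to 1.52 (limma adjusted p = 9.1e-09). By p-value it ranked 3 among all genes tested, and at 6 of 6 times the 3 anti-Ly6G libraries did not overlap the 3 IgG libraries.

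Elane ran from 638.7 through a median of 792.2 to 974.8 in anti-Ly6G libraries, against 473.2, 558.9 and 696.6 in IgG libraries. The means were 781.6 ± 86.4 with anti-Ly6G and 556.2 ± 58.4 with IgG (SD, n = 18 each), a difference of log2 0.49 (SE 0.0507; limma adjusted p = 3.6e-08). Here 14 of 18 anti-Ly6G libraries were above the highest IgG library. Groups overlapped at ZT 9 and did not at the other 5 times.

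Prtn3, which cleaves many of the same matrix proteins as elastase, had the largest difference of the 5. Its lowest, median and highest values were 456.5, 549.7 and 804.9 in anti-Ly6G libraries, against 305.5, 353.3 and 524.2 in IgG libraries. It averaged 580.5 ± 89.2 with anti-Ly6G and 364 ± 53.1 with IgG (SD, n = 18 each). The difference of log2 0.67 (SE 0.0656), or 1.59-fold with a 95% confidence interval of 1.45 to 1.75 (limma adjusted p = 9.1e-09), ranked 8 by size among the 1422 genes called higher. Only the highest IgG library, at ZT 9, reached into the range of the anti-Ly6G libraries at its own time.

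Ctsg had 249.6, 315.1 and 432.3 as its lowest, median and highest values in anti-Ly6G libraries, against 176.9, 210.7 and 328.4 in IgG libraries. The difference was log2 0.56 (SE 0.0648; limma adjusted p = 1.9e-07), with means of 323.5 ± 47.03 with anti-Ly6G and 218.6 ± 33.6 with IgG (SD, n = 18 each). The whole ranges overlapped more than for the 3 genes above, since 6 of 18 anti-Ly6G libraries lay above the highest IgG library. Of the 18 IgG libraries, 17 lay below the lowest anti-Ly6G library.

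Ms4a3, the progenitor marker, had the lowest level and the smallest difference of the 5. It ran from 115.8 through a median of 147.4 to 208.1 in anti-Ly6G libraries, against 91.4, 107.3 and 164.4 in IgG libraries. The difference was log2 0.48 (SE 0.0661; limma adjusted p = 4.6e-06), and 4 of 18 anti-Ly6G libraries were above the highest IgG library. Together the 5 genes made up 0.400 ± 0.0446% of the recovered counts of a library with anti-Ly6G and 0.272 ± 0.0274% with IgG (SD, n = 18 each).

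**Figure D1:**
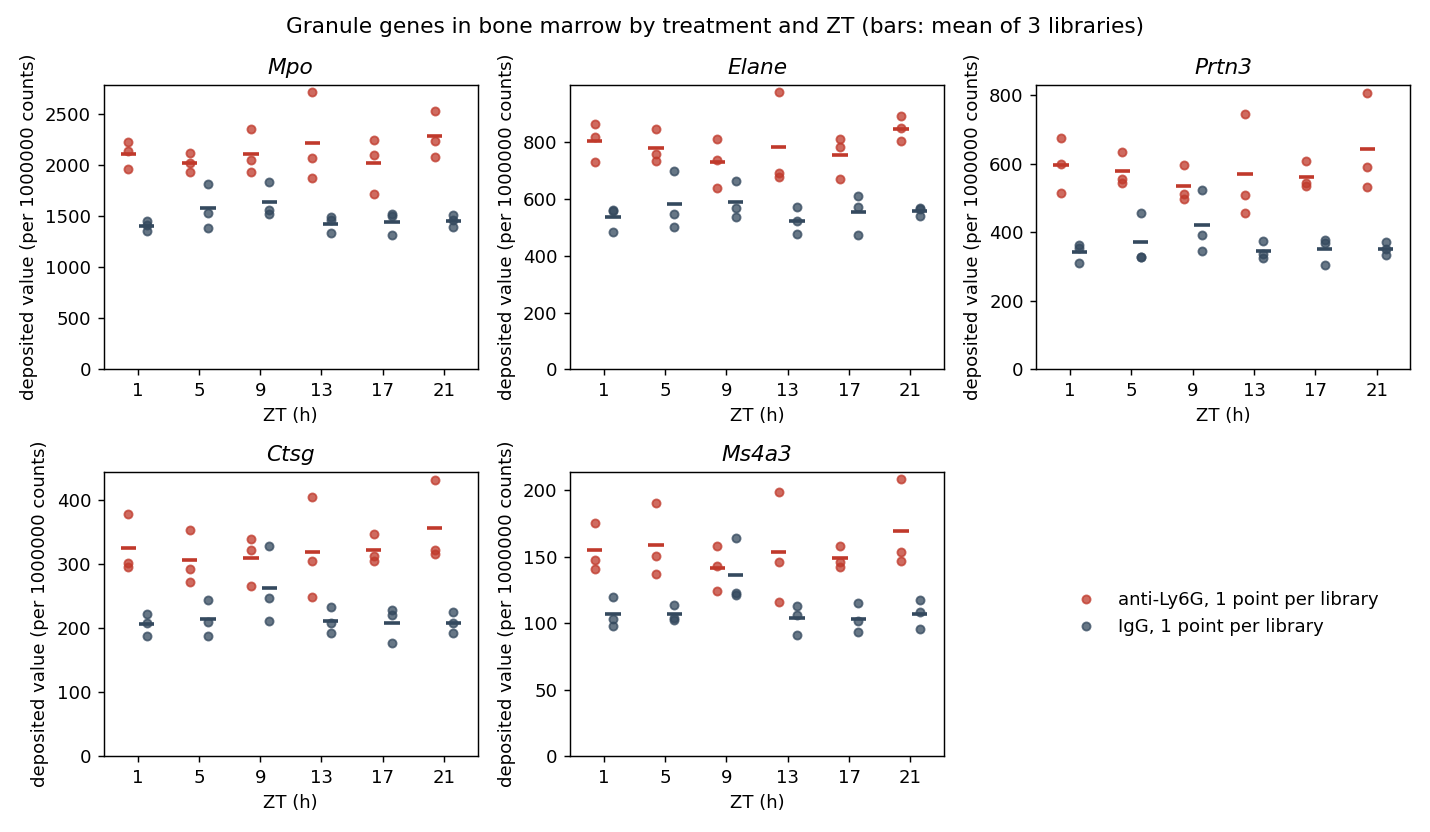
Deposited values of the 5 genes in bone marrow (vertical axes, per 1000000 counts, each from 0) by ZT in hours, with 1 point per library, the mean of 3 libraries as a bar, and anti-Ly6G drawn left of IgG. At ZT 9 the IgG points reach into the anti-Ly6G points for 4 of the 5 genes, with Mpo at 1933 to 2351 with anti-Ly6G, against 1524 to 1839 with IgG, as the exception.

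Divided by the summed exon length of each gene, the order of the levels was not that of the values. That length joins the exons of all GENCODE transcripts of a gene, among them the Prtn3 transcript that begins further upstream. Which transcripts are used in bone marrow was not tested, so levels per kb and their order depend on the annotation. Per kb of exon, Elane averaged 794.3 ± 87.8 with anti-Ly6G and 565.2 ± 59.3 with IgG, above Mpo with 621.4 ± 69.1 with anti-Ly6G and 435.9 ± 41.3 with IgG (SD, n = 18 each). Prtn3 followed with 335.2 ± 51.5 with anti-Ly6G and 210.1 ± 30.6 with IgG, and Ctsg with 313.2 ± 45.5 with anti-Ly6G and 211.6 ± 32.6 with IgG, so this pair differed by less than 1 SD in both treatments. Ms4a3 was lowest, with 82.1 ± 12.9 with anti-Ly6G and 58.7 ± 8.77 with IgG.

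The 5 genes did not all move by the same amount. Within each library the log2 ratio of every pair was taken, and the anti-Ly6G and IgG libraries were compared by a two-sided permutation test within ZT (100000 resamples), adjusted over the 10 pairs. Prtn3 was higher relative to each of the other members. The log2 ratio of Elane to its neighbour Prtn3 averaged 0.43 ± 0.107 with anti-Ly6G and 0.62 ± 0.095 with IgG, a difference of -0.18 with the same sign at 6 of 6 times (permutation adjusted p = 0.0002).

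The ratio of Mpo to Prtn3 changed by -0.16 (permutation adjusted p = 0.0005), that of Prtn3 to Ctsg by 0.11 (permutation adjusted p = 0.000467) and that of Prtn3 to Ms4a3 by 0.19 (permutation adjusted p = 0.00025), each with the same sign at 6 of 6 times. Ctsg was higher relative to Ms4a3 by 0.087 (5 of 6 times, permutation adjusted p = 0.00334). The other 5 pairs, those among Mpo, Elane and Ms4a3 and those of Mpo and Elane with Ctsg, differed by -0.075 to 0.033 and did not pass (permutation adjusted p between 0.125 and 0.778). The Elane to Ctsg ratio passed only without ZT 9 (-0.0998, permutation adjusted p = 0.0371).

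**Figure D2:**
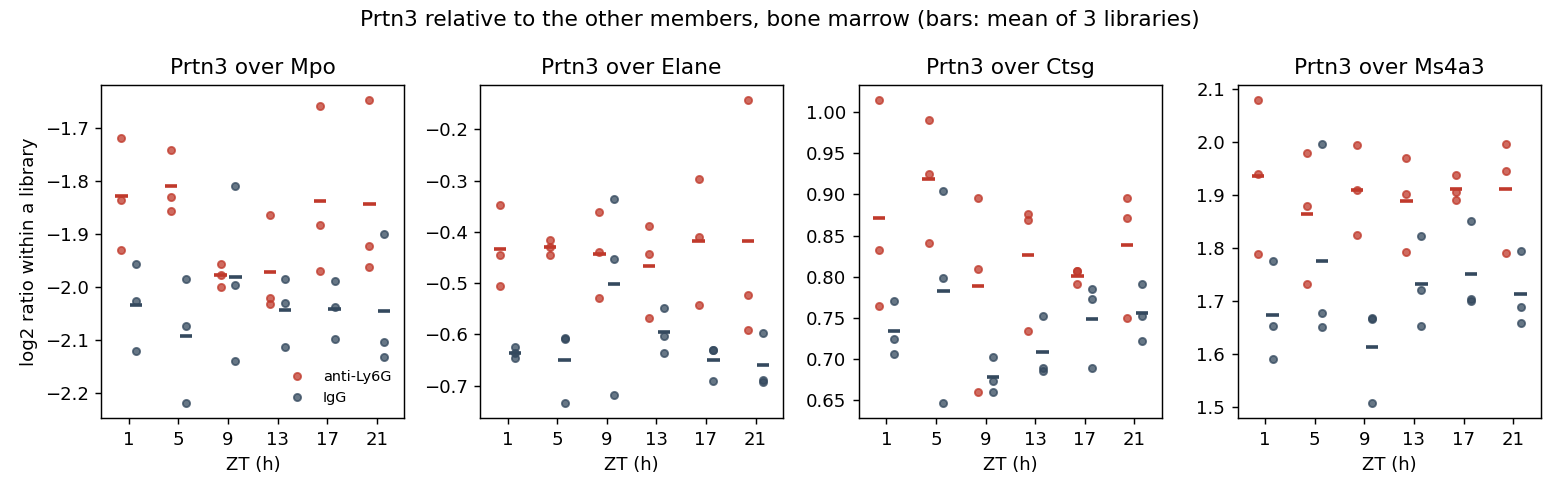
Log2 ratio of Prtn3 to each of the other 4 genes within a bone marrow library (vertical axes) by ZT in hours, with 1 point per library, bars for the mean of 3 libraries and anti-Ly6G left of IgG. For Prtn3 over Elane, anti-Ly6G libraries ran from -0.591 to -0.143 and IgG libraries from -0.734 to -0.336.

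The size of the difference was given at each time from a model with 12 treatment and ZT means. It was smallest for all 5 genes at ZT 9, where Mpo differed by log2 0.36, Prtn3 by 0.36, Elane by 0.31, Ctsg by 0.25 and Ms4a3 by 0.068 (SE 0.118 to 0.159). At ZT 9, Ms4a3 had 123.9, 143.4 and 158.1 with anti-Ly6G, against 120.9, 122.5 and 164.4 with IgG. IgG library 8, at ZT 9, was the highest of the 18 IgG libraries for Mpo, Prtn3, Ctsg and Ms4a3. Without it, the differences at ZT 9 were 0.45 for Mpo, 0.54 for Prtn3, 0.39 for Elane, 0.43 for Ctsg and 0.21 for Ms4a3, and 0 of 5 passed.

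Differences were largest at ZT 21, where Prtn3 had 533.1, 589.8 and 804.9 with anti-Ly6G, against 333.8, 350.9 and 372.3 with IgG (log2 0.84, SE 0.159; limma adjusted p = 0.0255). At ZT 13 Mpo had 1870, 2066 and 2714 with anti-Ly6G, against 1332, 1460 and 1488 with IgG (log2 0.62, SE 0.118; limma adjusted p = 0.00308). At each of these times the same 1 of the 3 anti-Ly6G libraries was the highest for all 5 genes (library 16 at ZT 21 and library 10 at ZT 13).

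The number of members called higher was 4 of 5 at ZT 1 (0.987% of all genes), 0 at ZT 5 (0.231%), 0 at ZT 9 (0.021%), 5 at ZT 13 (4.52%), 0 at ZT 17 (0% of all genes) and 4 at ZT 21 (0.119%). In the same limma contrasts, 5 of 5 were higher at an unadjusted p under 0.05 at ZT 5 and at ZT 17, and 3 of 5 at ZT 9. The share of all genes past that unadjusted threshold was not taken. Since the 5 genes vary together between libraries, these counts are descriptions only. All 5 genes had anti-Ly6G libraries entirely above IgG libraries at ZT 1, 5, 13, 17 and 21, as did 13.5%, 8.55%, 11%, 7.03% and 9.56% of all genes in that order. At ZT 9 this held for 1 of 5, against 10.8% of all genes.

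These calls rest on 3 libraries per treatment. Without any 1 of IgG libraries 1, 2 and 3 or anti-Ly6G libraries 1 and 3, 0 of the 5 were called at ZT 1, and 3 were called without anti-Ly6G library 2. At ZT 13, 0 were called without anti-Ly6G library 10, 1 without IgG library 11 and 3 without IgG library 12. At ZT 21, 0 were called without any 1 of IgG libraries 16, 17 and 18 or anti-Ly6G libraries 16 and 17, and 3 without anti-Ly6G library 18. At ZT 5, leaving out IgG library 4 brought 1 call, that of Prtn3.

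**Figure D3:**
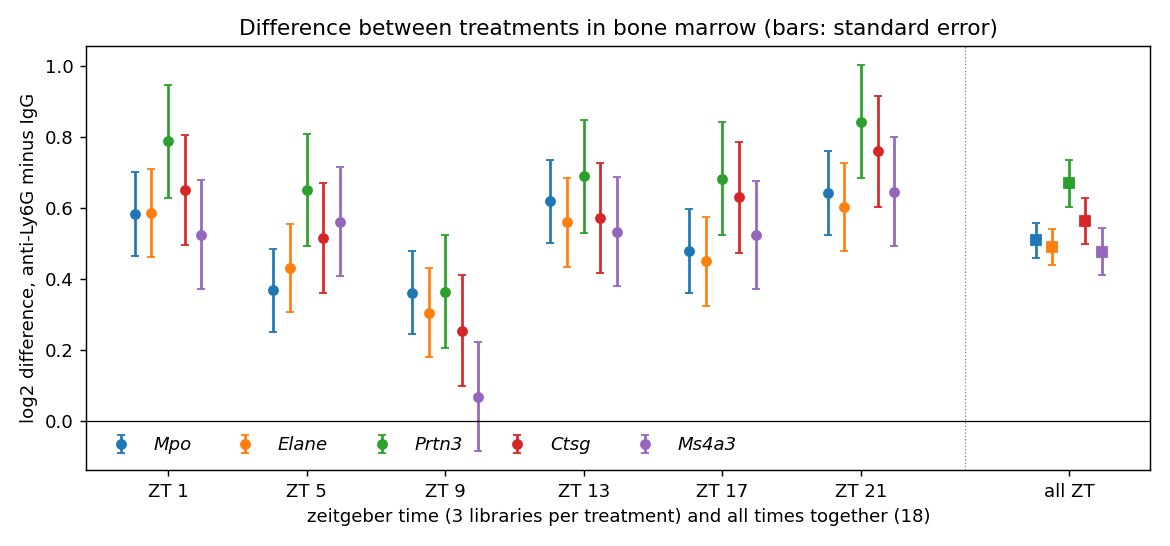
Log2 difference, anti-Ly6G minus IgG, with its standard error, for the 5 genes at each ZT (3 libraries per treatment) and over all times (squares, 18 per treatment). Every estimate lies above 0, and those at ZT 9 run from 0.068 to 0.36.

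Whether the difference itself changed with time was tested by the interaction of treatment and ZT. None of the 5 passed (limma adjusted p between 0.535 and 0.785), and 0.021% of all genes did. No unadjusted interaction p was under 0.05, the lowest being 0.143 for Ms4a3.

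No daily rhythm was called for any of the 5 genes in either treatment. In the fit of a 24 h wave, the lowest adjusted p was 0.656 with anti-Ly6G (Elane) and 0.545 with IgG (Ctsg), no unadjusted p was under 0.05, and 0.406% of all genes were called with anti-Ly6G and 1.62% with IgG. With anti-Ly6G the highest of the 6 time means fell at ZT 21 for all 5 genes, and it exceeded the lowest by 1.13-fold (Mpo) to 1.2-fold (Prtn3). With IgG the highest mean fell at ZT 9 for all 5, by 1.13-fold (Elane) to 1.31-fold (Ms4a3). Anti-Ly6G library 16 was the highest at ZT 21 in its treatment for all 5 genes, and IgG library 8 the highest at ZT 9. The genes vary together between libraries, so the shared times are not separate observations. The share of all genes with their highest means at these times was not taken. Some mice lived under a light cycle shifted by 12 h. Which ones is not given in the sources used here, so light cabinet and ZT cannot be told apart. In bone marrow, 6 of 6 clock transcripts peaked earlier by the labelled times with anti-Ly6G than with IgG, by 1.43 to 3.94 h, with Dbp, a transcript under clock control, at 6.23 h with anti-Ly6G and 10.2 h with IgG. None of these 6 differences in rhythm passed (lowest limma adjusted p = 0.804, where 0.007% of all genes passed). The part of such a gap in the values at a single ZT was not tested.

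Across the 36 bone marrow libraries the 5 genes varied together. Pearson's r between pairs, on log2 values, was 0.90 (Mpo and Ms4a3) to 0.98 (Prtn3 and Ctsg). After subtracting the mean of each treatment and ZT it was 0.75 (Mpo and Ms4a3) to 0.94 (Ctsg and Ms4a3), with Mpo and Elane at 0.92. The pairs share library, depth and cell composition, so these values are descriptions.

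The genes most like the mean of the 5 over the 36 libraries, among 10913 candidates, were Nkg7 (a membrane protein of cytotoxic and myeloid granules, r = 0.96), Prss57 (neutrophil serine protease 4, r = 0.96), Cst7 (cystatin F, a protease inhibitor, r = 0.95) and Gstm1 (a glutathione transferase, r = 0.93). Pkm and Eno1 of glycolysis, Lta4h of leukotriene synthesis and Tkt of the pentose phosphate pathway followed, with r of 0.92 to 0.93. After subtracting treatment and ZT means, the 8 highest were Nkg7 (0.92), Anxa3 (0.91), Pgam1, Eno1, Lta4h, Gapdh, Gstm1 and Arhgdib, all at 0.88 or above. The median r of all candidates was -0.0064 before and 0.044 after that step.

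Of the 16 other genes of azurophil granules and of their processing, 9 rose and 1 fell with anti-Ly6G, with a list median of log2 0.13, against -0.0045 for all genes tested. Prss57 averaged 47.1 with anti-Ly6G and 32.5 with IgG (log2 0.51, SE 0.0502; limma adjusted p = 9.1e-09). Serpinb1a, an inhibitor of elastase, cathepsin G and proteinase 3, averaged 339.1 with anti-Ly6G and 266.1 with IgG (log2 0.34; limma adjusted p = 5.9e-05). Gusb (beta-glucuronidase) rose by log2 0.20 and Rab27a, a GTPase of granule release, by 0.21.

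Ctsc, the dipeptidyl peptidase that activates the granule serine proteases, rose by log2 0.14 (160.3 with anti-Ly6G and 145.3 with IgG; limma adjusted p = 0.0149). Srgn, the proteoglycan that binds them in the granule, rose by log2 0.19. Ctsd, a lysosomal protease, fell by 0.10 on the log2 scale. Lyz2 (lysozyme), which is kept on in later granules and in macrophages, did not pass, with 4306 with anti-Ly6G and 4191 with IgG (log2 0.034; limma adjusted p = 0.722).

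Of 15 regulators of granule formation tested, 7 rose and 1 fell, with a median of log2 0.086. Gfi1, a repressor needed for granulocyte formation, averaged 39.0 with anti-Ly6G and 28.3 with IgG (log2 0.44; limma adjusted p = 2.8e-07). Cebpe, which drives the change to the later granules, rose by 0.31, Cebpa by 0.26, and Spi1, the gene for PU.1, by 0.18. Csf3r, the receptor for G-CSF, fell by 0.23 (262.4 with anti-Ly6G and 303.7 with IgG; limma adjusted p = 0.00954). Runx1 (0.044) and Myb (-0.026) did not pass.

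Of 16 promyelocyte genes, 13 rose and none fell at the threshold (median log2 0.23). Gstm1, Nkg7 and Cst7 rose by 0.41, 0.42 and 0.40, and Hdc (histidine decarboxylase) by 0.36. Of 17 genes of the granules that form later (specific and gelatinase), 11 rose and none fell (median 0.24), among them Pglyrp1 (0.34), Ceacam1 (0.31), Lcn2 (0.32) and Hp (0.34). Mmp8, a collagenase of those granules, had 637 with anti-Ly6G and 636.9 with IgG.

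Of 18 mature neutrophil markers, 7 rose and 3 fell (median 0.14). Cd177 rose by 0.36 and Slfn4 by 0.38, while Ccl6 fell by 0.29 and Clec4d by 0.28. Ly6g itself, the gene of the antibody's target, averaged 117.6 with anti-Ly6G and 104.5 with IgG (log2 0.16, SE 0.0578; limma adjusted p = 0.0498), which does not measure the protein or the cells left. S100a8, the neutrophil cytosolic protein, had 6139 with anti-Ly6G and 5492 with IgG (log2 0.15; limma adjusted p = 0.139). Among the listed genes outside the 5, only Prss57 and Dmkn of the promyelocyte list (log2 0.53, on a low level of 5.67 with anti-Ly6G and 3.69 with IgG) rose by more than the smallest member difference of 0.48.

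Markers of other bone marrow cells moved in both directions. With anti-Ly6G, 7 of 10 monocyte markers rose (median 0.18), as did 5 of 6 tested mast cell markers (0.17) and 6 of 12 basophil and eosinophil markers (0.24), and none of these 3 lists had a gene that fell. The mast cell list holds 12 genes, of which Cma1, Mcpt4 and Tpsb2 were among those not tested in bone marrow. The lists also share genes. Of the mast cell markers, Hdc is on the promyelocyte list, Kit on that of regulators, and Ms4a2 and Fcer1a on that of basophils and eosinophils. Itgam, which rose by log2 0.20, is on the monocyte list and on that of the later granules. Csf3r, which fell, is counted among both the regulators and the mature neutrophil markers, and Csf1r among both the regulators and the monocyte markers. Of 16 B lineage markers, 12 fell and none rose (median -0.23), and of 14 erythroid markers, 10 fell and none rose (-0.18). Of 12 genes of dividing cells, 2 fell (-0.069).

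As summed levels, monocyte markers ran from 2278 to 4014 (median 2624) with anti-Ly6G, against 2048 to 2492 (median 2257) with IgG. B lineage markers ran from 2279 to 3677 (median 3012) with anti-Ly6G and from 3069 to 3836 (median 3396) with IgG. The summed level of the 5 members ran from 3369 to 5037 (median 3877) with anti-Ly6G and from 2360 to 3518 (median 2691) with IgG. The part of cell composition in the members' difference was not tested.

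**Figure D4:**
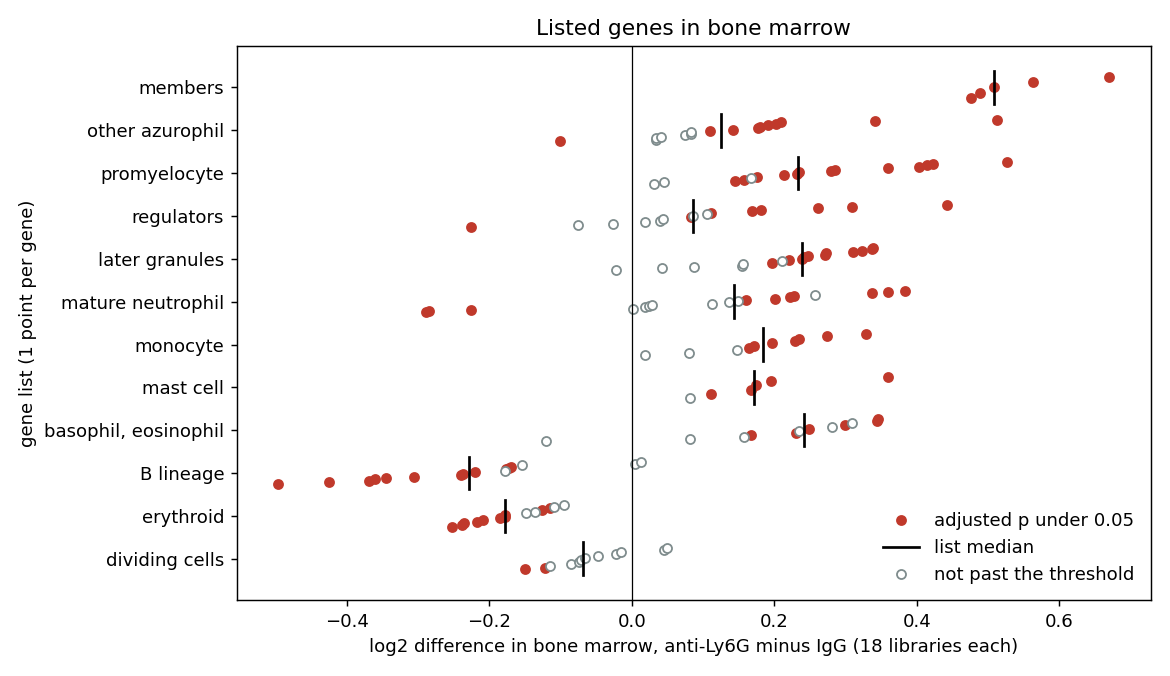
Log2 difference in bone marrow, anti-Ly6G minus IgG (horizontal axis), for each tested gene of 12 lists, with filled points past an adjusted p of 0.05, open points not past it, and a black bar at the list median. The 5 members lie between 0.48 and 0.67, and the medians of the other lists between -0.23 and 0.24.

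Of 27 other tested genes within 100 kb of a member, 11 rose and 2 fell with anti-Ly6G (median log2 0.13). Of all genes tested, 9.95% rose and 7.16% fell (median -0.0045). The 27 include genes of the lists above, among them Prss57, Mcpt8, Ms4a2 and Epx, so the count does not separate position from cell type. Plppr3, on the opposite strand, overlaps the 5′ end of the Prtn3 transcript that begins furthest upstream in GENCODE, but not the RefSeq start 5191 bases further on. It averaged 40.5 with anti-Ly6G and 29.5 with IgG (log2 0.44; limma adjusted p = 1.4e-07). Gm11505, inside Mpo on the opposite strand, averaged 2.36 with anti-Ly6G and 1.78 with IgG (log2 0.27; limma adjusted p = 0.00853). Whether reads were assigned by strand is not given in the sources used here, so reads of such pairs cannot be told apart. Ptbp1, on the same strand 9705 bases from Prtn3, did not pass (384.7 with anti-Ly6G and 379 with IgG, log2 0.021). Cfd, 2638 bases beyond Elane, had 4.70 with anti-Ly6G and 4.46 with IgG (log2 0.14; limma adjusted p = 0.533). Mcpt8, a basophil protease 14608 bases from Ctsg, rose by 0.35.

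Outside bone marrow the members were near the lowest level that could be measured. Each table was normalized on its own, so levels set across tissues are approximate. Liver Prtn3 ran from 0.135 through a median of 0.353 to 2.64 with anti-Ly6G, against 0.041, 0.256 and 2.75 with IgG, where a single read was worth 0.0416 to 0.0978. The highest library of each treatment was 1 anti-Ly6G library at ZT 21 with 38 reads and 1 IgG library at ZT 9 with 29. In both of those libraries S100a8 was under 1, at 0.721 with anti-Ly6G and 0.792 with IgG.

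Liver Prtn3 was below the mean of 1 required for testing. Without that filter it averaged 0.653 ± 0.684 with anti-Ly6G and 0.450 ± 0.605 with IgG (SD, n = 18 each), a difference of log2 0.17 (SE 0.144) that did not pass (limma adjusted p = 0.680; 1.06% of all genes passed). Its size depended on the setting, at 0.44 with a pseudocount of 0.1, 0.051 with 5 and 0.53 with voom weights, for which no p-value was taken.

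Lung Prtn3 ran from 0.391 through 0.821 to 1.63 with anti-Ly6G, against 0.434, 0.859 and 1.73 with IgG, with 5 to 28 reads in every library. It was also under the filter, and without it the difference was log2 -0.014 (SE 0.0713; limma adjusted p = 0.972; 0% of all genes passed). The labelled lung times are in doubt, since Dbp peaked at 0.301 h with anti-Ly6G and 3.45 h with IgG by the labelled times in lung, but at 7.84 h with anti-Ly6G and 8.59 h with IgG in liver. Whether the treatment labels of the lung libraries are right was not tested. The lung difference of Prtn3 therefore holds only if those labels do. The gap between the treatments over the 6 clock transcripts was 2.37 to 3.30 h in lung, within the 1.43 to 3.94 h of bone marrow, against 0.36 to 0.886 h in liver. The fitted waves were smaller in bone marrow than in lung for all 6, so peak times there are less certain. For Dbp the log2 amplitudes were 0.590 with anti-Ly6G and 0.714 with IgG in bone marrow, against 3.03 and 3.07 in lung. In lung the difference in rhythm passed for Arntl (limma adjusted p = 0.0471, where 0.0511% of all genes passed), and in bone marrow for none of the 6.

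In ear skin the 3 measured members did not move together. Ctsg was lower in iDTR than in control skin, Mpo was lower and Prtn3 was higher, the last 2 at a level of a few reads. iDTR and Bmal1-flox skin were compared with the same control libraries. Of all genes, 32.4% were called lower and 30.6% higher in iDTR skin.

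Skin Ctsg had a lowest value of 0.272, a median of 0.813 and a highest of 1.80 in iDTR skin, against 1.01, 1.76 and 3.32 in control skin. The median number of recovered reads was 11.5 in iDTR skin and 25.5 in control skin. It averaged 0.884 ± 0.431 in iDTR skin and 1.89 ± 0.641 in control skin (SD, n = 16 each), and was lower in iDTR skin at 15 of 16 times. The difference was log2 -0.62 (SE 0.0974; limma adjusted p = 3.2e-07). It was -1.08 with a pseudocount of 0.1, -0.23 with 5 and -1.17 with voom weights, and passed in each. In Bmal1-flox skin it ran from 0.961 through 1.37 to 1.98, a difference from control of log2 -0.24 (SE 0.0991) that did not pass (limma adjusted p = 0.164, where 5.63% of all genes passed). From the fit without the filter (SE 0.0978), the 95% confidence interval before adjustment was -0.44 to -0.043.

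Skin Mpo ran from 0.032 through 0.112 to 0.432 in iDTR skin, against 0.031, 0.379 and 1.08 in control skin, and 7 of 16 iDTR libraries and 1 of 16 control libraries had 0 reads. The deposited values hold 0.5 of a count for each gene, so that a library with 0 reads is listed above 0. It was under the filter. Fitted without it, iDTR skin was lower by log2 -0.35 (SE 0.093; limma adjusted p = 0.00134), at 14 of 16 times, where 29.9% of all genes were lower. Bmal1-flox skin ran from 0.030 through 0.394 to 1.27 and differed from control by -0.053 (95% confidence interval -0.24 to 0.14; limma adjusted p = 0.832, where 5.07% of all genes passed).

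Skin Prtn3 ran from 0.109 through 0.573 to 1.21 in iDTR skin, against 0.035, 0.200 and 0.533 in control skin. The median number of reads was 7.00 in iDTR skin and 2.5 in control skin. It too was under the filter, and fitted without it was higher in iDTR skin by log2 0.30 (SE 0.0746; limma adjusted p = 0.000527), where 27.7% of all genes were higher. It was higher at 14 of 16 times. Bmal1-flox skin ran from 0.026 through 0.158 to 0.807 and differed from control by 0.028 (95% confidence interval -0.12 to 0.18; limma adjusted p = 0.894).

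**Figure D5:**
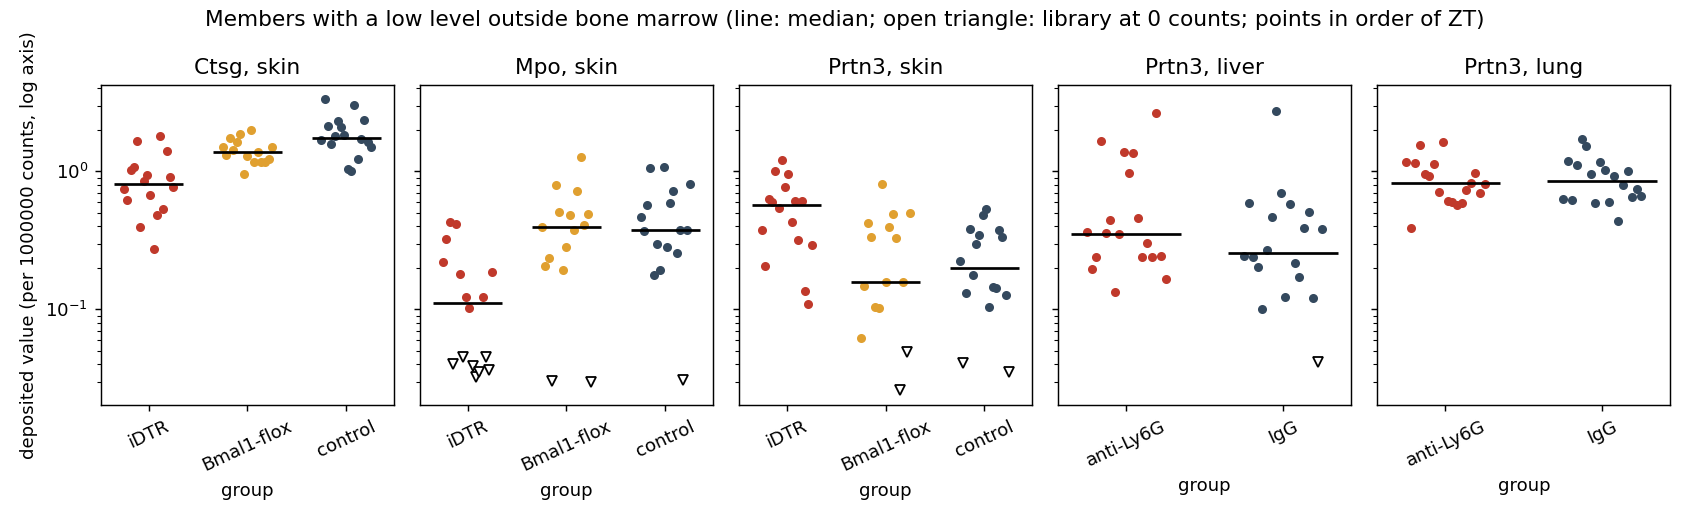
Deposited values on a log axis (per 1000000 counts) of Ctsg, Mpo and Prtn3 in ear skin by genotype and of Prtn3 in liver and lung by treatment, with 1 point per library in order of ZT, a line at the median, and open triangles for libraries at 0 reads. In skin the medians are 0.813 in iDTR and 1.76 in control for Ctsg, 0.112 in iDTR and 0.379 in control for Mpo, and 0.573 in iDTR and 0.200 in control for Prtn3.

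Mouse mast cells also make Ctsg, and skin holds many. Of 12 mast cell markers, 3 were higher (Hdc, Tpsab1 and Fcer1a) and 4 lower (Mrgprb2, Gata2, Kit and Ms4a2) in iDTR skin, with a median of log2 -0.099, against -0.017 for all genes. Their summed level ran from 157.3 to 547.4 (median 290) in iDTR skin, against 215.7 to 359.1 (median 278.6) in control skin. The most abundant, Mcpt4, had 80.6 in iDTR skin and 73.1 in control skin (log2 0.093; limma adjusted p = 0.402), and Cpa3, which is shared by all mast cells, had 40.4 in iDTR skin and 44.0 in control skin (log2 -0.22; limma adjusted p = 0.170).

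Of 10 mature neutrophil markers tested in skin, 8 were higher and 2 lower in iDTR skin (median log2 0.79), with S100a8 at 15.5 in iDTR skin and 5.01 in control skin. Several of these, S100a8 and S100a9 among them, are also made by keratinocytes. Of 13 genes of the later granules, 10 were higher and 2 lower (median 0.57). Of 13 genes of the promyelocyte list, 6 were higher and 3 lower (median 0.17), with Chil3 at 5.62 in iDTR skin and 0.221 in control skin (log2 2.33) and Mgst1 at 46.5 in iDTR skin and 232.5 in control skin (log2 -2.29). Both lists hold genes at a high level in control skin, such as Dmkn (2319), Calr (310.1) and Hp (108.2), against 1.89 for Ctsg. In skin they therefore do not measure promyelocytes or neutrophils alone, and which cells make these genes was not tested. Of 4 basophil and eosinophil markers tested, Ear6, Ear2 and Ms4a2 were lower and Fcer1a higher (median -0.40), with a summed level of 6.22 to 30.3 (median 12.2) in iDTR skin, against 11.5 to 22.8 (median 17.0) in control skin. Ms4a2 and Fcer1a are also among the mast cell markers. The part of mast cells, basophils, eosinophils, neutrophils and keratinocytes in the values of Ctsg, Mpo and Prtn3 was not tested.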

How the data were processed

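RNA sequencing was measured in 191 libraries of 5 mouse tissues. Per the labels' protocols, 200 ng of total RNA per library went through the NEBNext Ultra kit and was read as 50-nucleotide single reads. Reads were trimmed with cutadapt 1.7.1 and quantified with RSEM against GRCm38 with Ensembl gene-build 84. The submitters' processing notes give RSEM 1.7.1 and the protocol RSEM 1.2.20 and Kallisto 0.43.1. The normalization method and gene filter are not given in the sources used here.

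The deposited values are a linear normalized signal. In each column, the value times 0.5 over the column's minimum, less 0.5, gave numbers with at most 2 decimals, of which 32.1% (lung) to 46.4% (liver) were whole within 0.01. These are RSEM-like expected counts, so no count test was run, and they serve here as recovered counts (reads) and depth. Confidence intervals come from limma's standard errors and so reflect the spread between libraries. One skin row that names no gene, at most 0.000302% of a library, was left out. Identifiers were matched to GENCODE M21, with 44 to 74 per table unmatched.

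Values were transformed as log2(value + 1), genes with a mean of at least 1 were kept, and limma 3.58.1 in R 4.3.3 was fitted with a mean-variance trend, two-sided, with ZT as a factor (bone marrow, liver, lung) or a 24 h wave (skin, rhythms). The fits were also run on simulated counts with a fixed dispersion and genes drawn independently. Genes in these data vary together, so that run does not show how the fits behave here. It required no rate of recovery for the contrast at a single ZT. Ratios between members used permutation within ZT.

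The 5 members and the gene lists were chosen with earlier results of these data known. Genes named from a list are mostly the up to 4 with the smallest adjusted p past the threshold. Ctsc, Srgn, Ctsd, Lyz2, Csf3r, Runx1, Myb, Mmp8, Ccl6, Clec4d, Ly6g, S100a8, Dmkn and the skin markers were named for their roles or after their values were seen. Likeness took genes with a mean of at least 4, and neighbours lie within 100 kb. Alternatives were other pseudocounts, filters, weights and scaling, a replicate block, and leaving out times or libraries.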

Additional observations from a re-analysis of the deposited data

How the results depend on the processing

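The 5 differences over all times in bone marrow kept their direction and passed under all 13 alternatives (pseudocounts of 0.1 and 5, no filter, a mean of at least 4, voom weights, quantile normalization, no time term, and without each ZT). They ran from 0.48 to 0.57 for Mpo, 0.47 to 0.53 for Elane, 0.64 to 0.73 for Prtn3, 0.52 to 0.63 for Ctsg and 0.44 to 0.56 for Ms4a3, with a highest adjusted p of 0.000176 (Ms4a3). Without each of the 36 libraries they ran from 0.48 to 0.53, 0.46 to 0.51, 0.64 to 0.70, 0.54 to 0.60 and 0.45 to 0.51 in that order of genes. Over all genes, 1422 were higher and 1023 lower. Without ZT 1 these were 907 and 487, and without each library 1255 to 1537 and 829 to 1218. The cause was not tested.

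At a single time, leaving out libraries gave 0 to 3 members called at ZT 1, 0 to 1 at ZT 5, 0 at ZT 9, 0 to 5 at ZT 13, 0 at ZT 17 and 0 to 3 at ZT 21. No rhythm was called under any alternative, the lowest adjusted p being 0.542 with anti-Ly6G and 0.343 with IgG. The Elane to Ctsg ratio passed without ZT 9 (-0.0998).

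In skin, Mpo and Prtn3 were tested only once the filter was lifted, and the settings joined to that were chosen after seeing the data. For iDTR against control, Mpo was -0.346 with no filter, -1.193 with a pseudocount of 0.1, -0.0882 with 5, -1.761 with voom weights and -0.317 with quantile normalization, and Prtn3 0.302, 0.891, 0.0809, 1.301 and 0.349 in that order. All of these passed, as did every value without 1 library (Mpo -0.380 to -0.310, Prtn3 0.277 to 0.321, Ctsg -0.669 to -0.578). Ctsg, tested with the filter, was -1.08 with a pseudocount of 0.1, -0.226 with 5, -1.168 with voom weights and -0.478 with quantile normalization, and passed in each. The sizes depend on the pseudocount for all 3 genes. Liver Prtn3 was 0.439 with a pseudocount of 0.1, 0.0508 with 5, 0.534 with voom weights and 0.159 with quantile normalization, and lung Prtn3 -0.0466 to -0.00465 under the same settings. For Bmal1-flox against control, Mpo was -0.357 with voom weights and did not pass. No member was left in skin with a mean of at least 4.

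With a replicate block on the skin title numbers, which mark a shared ZT, Mpo was -0.346 (adjusted p = 0.00345) and Prtn3 0.302 (adjusted p = 0.000836) in iDTR skin. Same-numbered iDTR and control libraries deviated together with a median correlation of 0.048, over 0.1 in 4 of 16 pairs, and 1 iDTR library correlated best with its own number. In Bmal1-flox skin the median was 0.0337, 4 of 15 pairs were over 0.1, and 4 libraries correlated best with their own number. Whether the numbers share more than the ZT was not tested. No block was run in gut, since its table held no member. Depth limits skin, liver and lung, where no member had more than 40 reads.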
